A study of Gallus gallus with 4 samples.

Results

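HIF1α-DNA binding complexes nearest to growth factor and receptor signalling genes were examined in primary lens cells of the chick. A peak was taken when a gene symbol of its nearest transcription start site (TSS) began with the letters of a signalling family, such as FGF, BMP, TGFB, WNT, NOTCH, IGF or VEGF, at any distance. This gave 153 peaks of 8375 in the list, and they belonged to 77 genes. The rule used names alone, so that peak height, enrichment and distance were free to vary.

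The cells came from lenses of White Leghorn embryos at embryonic day 10, and all had spent 4 h in dimethyloxalylglycine (DMOG) at 1 mM. DMOG inhibits prolyl hydroxylases and so stabilizes HIF1α. Binding was mapped by CUT&RUN, where a nuclease tethered to an antibody cuts the DNA around a bound protein and the freed fragments are sequenced. There were 4 libraries from 2 pools of 500000 cells, 2 with an antibody to HIF1α and 2 with control immunoglobulin (IgG), and no cells without DMOG were included. The authors pooled the libraries of each antibody before calling peaks, so each peak has 1 value and none has a replicate error. The list holds no measure of gene expression, so the lens identity of the cells could not be checked against marker genes in it, and a peak says nothing of whether its gene is active.

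These pathways carry signals between cells. A secreted or membrane-bound ligand binds a receptor at the surface, and transducers such as the SMAD and IRS proteins, or the ERK kinases, carry the signal inward. Secreted antagonists and intracellular inhibitors limit it. In the lens, FGF signalling is best known for driving fibre cell differentiation, BMP signalling for lens induction and fibre formation, and NOTCH signalling for the balance between dividing and differentiating cells. HIF1 is best known in this field for activating the angiogenic ligand VEGFA.

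Binding was spread over all the pathways and lay mostly far from promoters. The BMP/TGFB group had 40 peaks at 21 genes. The FGF group, which includes the SPRY, SPRED and DUSP inhibitors, had 37 peaks at 19 genes, and the WNT group had 32 peaks at 13 genes. VEGF and angiopoietin genes had 11 peaks, IGF genes 9, EGF and ERBB genes 8, NOTCH pathway genes 7 and PDGF genes 6. A further 3 peaks fell to PTCHD1, which shares its first letters with the Hedgehog receptor genes and is not itself an established Hedgehog receptor. Altogether 11 peaks at 7 genes, among them PTCHD1, ANGPTL4 and IGF2BP3, were in the set for the letters of their symbol and not for a known role as ligand, receptor or regulator of the family.

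The median distance from a signalling-gene peak to the TSS was 30175 bp (95% confidence interval of the median 20856 to 39378), and it was 23632 bp over the whole list. A total of 15 peaks were within 3 kb of a TSS, which is 9.80% (Wilson 95% confidence interval 6.03 to 15.5), beside 13.0% of the listed peaks. Within 10 kb there were 35 peaks (22.9%), beside 30.8% of the list, and beyond 100 kb there were 25 (16.3%), beside 17.1%. These differences from the list were not tested, because the members were fixed by name and peaks of 1 gene share its surroundings.

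**Figure D1:**
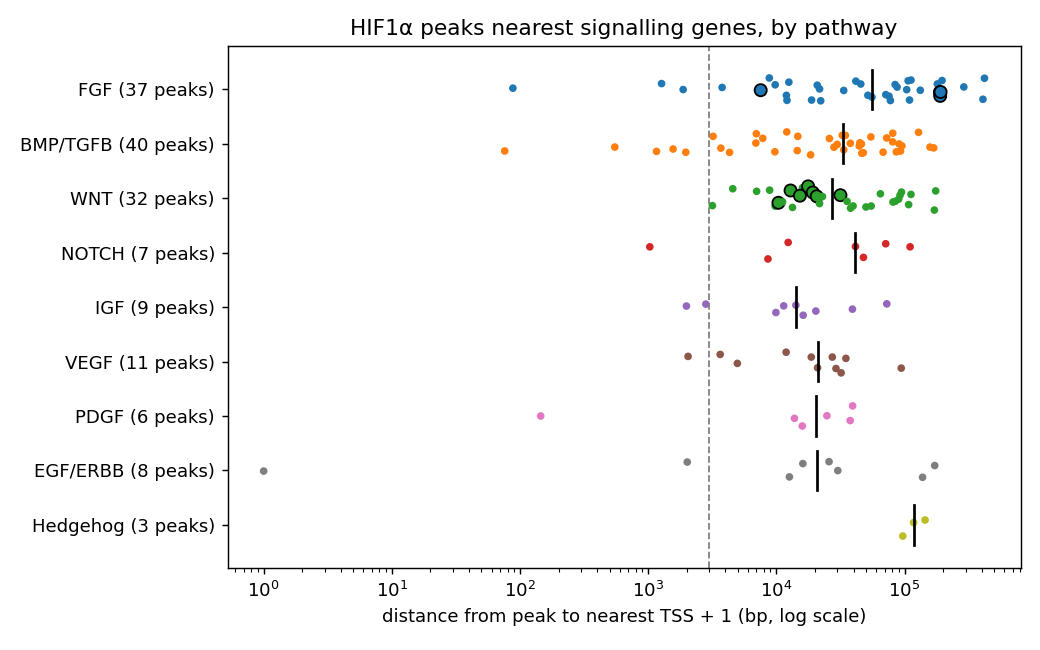
Distance of each of the 153 signalling-gene peaks to its nearest TSS, plus 1 bp, on a log axis, with 1 row per pathway. Points are peaks, black bars are medians, the dashed line is at 3 kb, and large points with a black rim have a high IgG background. Of the 32 WNT peaks 0 lie left of the line, beside 13.0% of the listed peaks. The FGF row reaches the farthest right, to 420546 bp at SPRY2.

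In strength the signalling-gene peaks were near the middle of the list. The pileup is the count of HIF1α fragments stacked at the peak summit in the pooled libraries. It is not known whether a count is a whole fragment or a fragment end, and intervals of pileups assume that counts are independent. Fold enrichment is the pileup plus 1 over the background plus 1. Background here is the scaled IgG coverage nearby or, where that is lower, a genome-wide floor of 1.297 fragments. The median pileup was 9 fragments and the median fold enrichment 3.92 (95% confidence interval of the median 3.92 to 4.02), and both medians were the same over the whole list. The background was at the floor for 76 peaks, or 49.7%, which is also the share in the list. The −log10 of the adjusted p (q) that the authors deposited from MACS2 reached 3 at 44 peaks (28.8%), beside 26.5% of the list. High IgG background, set as more than 3 times the floor, was found at 11 peaks (7.19%), beside 7.94% of the list.

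With so few fragments per peak, counting error is wide. At the floor, 7 fragments gave a −log10 q of 1.38, and this held for 18 signalling-gene peaks. A further 23 peaks had 8 fragments at the floor, 11 had 9, 14 had 10, 9 had 11 and 1 had 12. Of the 142 peaks without high IgG background, 137 had a pileup whose exact Poisson 95% interval reached down to 7 or below. Their order by height is therefore not resolved at this depth. The 5 exceptions had 14 or 15 fragments and lay near SMAD3, SMAD6, SPRY1, FLT1 and WNT11.

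**Figure D2:**
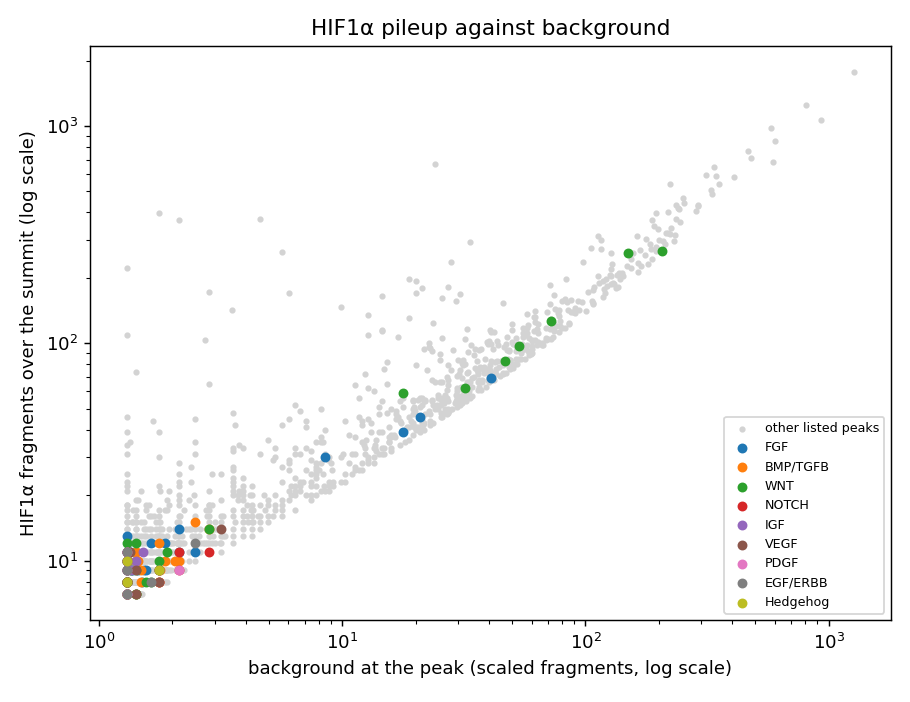
HIF1α fragments over the summit against the background in scaled fragments, both on log axes, for the 8375 listed peaks in grey and the signalling-gene peaks in colour by pathway. Most coloured points overlap in the lower left corner, at 7 to 15 fragments. The 11 with high IgG background lie at higher backgrounds and pileups, up to 267 fragments at WNT1.

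A peak closer than 3 kb to a TSS was found for 14 genes. Of the 153 peaks 14 (9.15%) carried more than 1 symbol, beside 6.97% of the list, and 1 (0.654%) covered a TSS, beside 0.967%. In the FGF group they were FGF7, FGFR1 and DUSP1. FGF7, also known as keratinocyte growth factor, is a ligand that mesenchyme sends to epithelium. The peak on chromosome 10 from 11034944 to 11035112 lay 87 bp from a TSS that the list gives to both DTWD1 and FGF7, so it cannot be assigned to FGF7 alone. It had 13 fragments (exact Poisson 95% interval 6.92 to 22.2), a fold enrichment of 6.09 (3.44 to 10.1 for the same counting error) with −log10 q at 5.71. This was the highest fold enrichment among the signalling-gene peaks, and 199 peaks in the list had a higher one.

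FGFR1 encodes an FGF receptor tyrosine kinase. Its peak, on chromosome 22 from 2662309 to 2662512, had 11 fragments, a fold enrichment of 5.22 with −log10 q at 3.88 at 1271 bp from a TSS shared with PLPP5 and NSD3. DUSP1, a phosphatase that switches off MAP kinases, had a peak of 10 fragments and a fold enrichment of 4.56 at 1874 bp on chromosome 13 from 9770480 to 9770701, a site that also carries the symbol of a microRNA. Thus the 3 promoter peaks of the FGF group all carried a second symbol. Another FGF family gene was outside the rule, because the list gives FGF14 under its older symbol FHF-4. It had a peak of 7 fragments at 89 bp, and others at 63079 and 111550 bp.

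In the BMP/TGFB group 5 genes had such a peak, and each of these peaks carried 1 symbol. GDF10, a secreted member of the BMP family, had a peak 75 bp from its TSS, spanning 18862948 to 18863090 of chromosome 6, with 10 fragments (4.80 to 18.4), a fold enrichment of 4.79 with −log10 q at 3.07. GDF8, the muscle growth inhibitor myostatin, had 12 fragments and a fold enrichment of 4.70 at 1965 bp on chromosome 7 from 254314 to 254422. SMAD9 and SMAD1, transducers that BMP receptors phosphorylate, each had 8 fragments and a fold enrichment of 3.92 and 3.90 in that order, at 548 bp on chromosome 1 and 1563 bp on chromosome 4. BMPR1A, a type I BMP receptor, had 7 fragments at 1161 bp, the lowest pileup that the list contains. The pileup intervals of these 5 genes overlapped.

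In the other pathways 6 genes had a peak this close. NRG4, a ligand of the ERBB4 receptor, was the 1 gene in the set with a peak that covered the TSS. That peak, spanning 3918631 to 3918913 of chromosome 10, had 12 fragments over a background of 2.48 and a fold enrichment of 3.74, and a second at 2017 bp had 11 fragments at the floor and a fold enrichment of 5.22. The platelet-derived growth factor gene PDGFC had a peak 144 bp from its TSS on chromosome 4 from 21203089 to 21203201, with 10 fragments and a fold enrichment of 4.79. JAG1, a NOTCH ligand required in the lens, had 8 fragments at 1029 bp and a fold enrichment of 3.92.

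FLT1, a VEGF receptor that is itself known to respond to hypoxia, had 14 fragments at 2047 bp over a background of 3.18, and a fold enrichment of 3.59. IGF1R, the receptor of the insulin-like growth factors, had 10 fragments at 2819 bp and a fold enrichment of 4.56, with the symbol shared with FAM169B. IGF2BP3, an RNA-binding protein named for its binding to IGF2 mRNA, had 11 fragments at 1987 bp and also carried the symbol FAM126A. Over the 77 genes a peak within 3 kb was thus found for 18.2% (Wilson 95% confidence interval 11.2 to 28.2), beside 21.9% of the 3677 protein-coding genes with a symbol that were nearest to a peak.

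To see how much of each family carried a peak at all, the symbols were counted in a RefSeq gene table. Of 215 protein-coding genes with the same first letters, 75 (34.9%, Wilson 95% confidence interval 28.8 to 41.5) were nearest to a peak, beside 25.6% of 14357 protein-coding genes with a symbol. A peak within 3 kb was found for 14 of the 215 (6.51%, 3.92 to 10.6), beside 5.61%. These counts include FGF14 by its older symbol. They leave out GDF8, which the table names MSTN, and DKK1 and IRS1, which the table lacks under these symbols. A gene that the peak list names otherwise than the gene table was counted as without a peak unless an older symbol matched. This can lower the 25.6% and 5.61% as well as the family shares, and how far was not tested. The nearest-TSS rule gives more peaks to a gene with more empty sequence around it, and how far this contributes was not tested.

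By pathway the share with a peak ran from 21.1% of 19 IGF genes to 57.1% of 7 genes of the NOTCH group among the 6 main groups, and their intervals overlapped. These counts go by first letters, and the 7 include JAGN1, which has no peak and is no NOTCH pathway gene. The NOTCH group counted JAG1, JAG2, DLL1 and DLL4, which are ligands, while the receptors NOTCH1 and NOTCH2 were nearest to no peak. In the IGF group IGF1R, IGFBP1, IRS4 and IGF2BP3 had a peak, as did IRS1, which the gene table lacks under this symbol. No peak was nearest to IGF1, IGF2 or INSR. Among the VEGF genes VEGFA, VEGFC, VEGFD and FLT1 had a peak, and KDR and FLT4 had none under these symbols. These absent genes were chosen for mention after the values were seen.

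**Figure D3:**
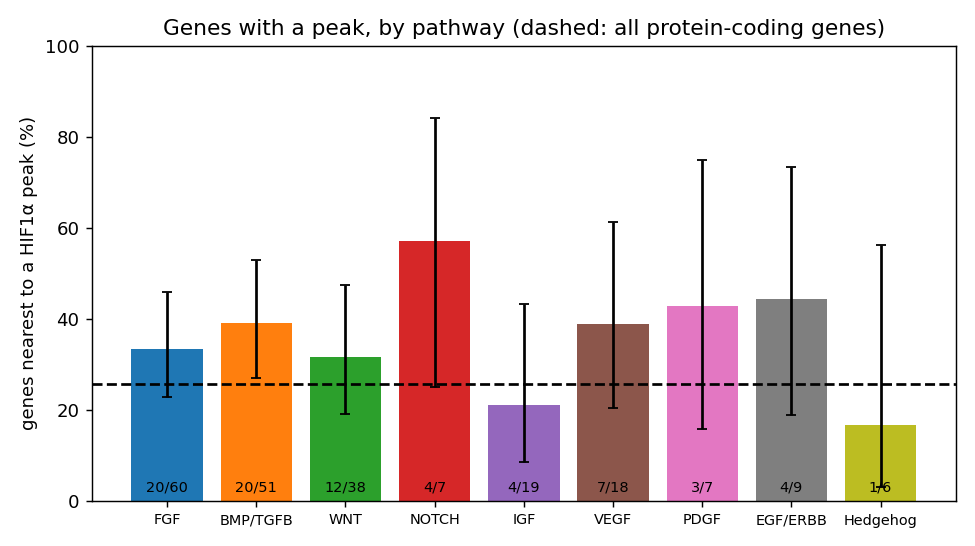
Share of the genes of each family, in percent, that were nearest to at least 1 HIF1α peak. Bars start at 0, whiskers are Wilson 95% intervals, counts are at the foot of each bar and the dashed line is the 25.6% of all protein-coding genes with a symbol. The whiskers of 8 of the 9 groups cross the line, and those of BMP/TGFB lie just above it, from 27.0% to 52.9%.

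Ligands made up 66 of the peaks, receptors 37, intracellular inhibitors 22, secreted modulators 11 and signal transducers 6, and the remaining 11 belonged to the genes without such a role. Within 3 kb of a TSS were 7 ligand peaks, 4 receptor peaks, 2 transducer peaks, 1 inhibitor peak and no peak of a secreted modulator. The transducers were the closest by median, at 9830 bp (confidence interval of the median 548 to 72755). They had only 6 peaks at 5 genes, and their interval overlapped that of every other role, so this place is not resolved. The intracellular inhibitors were the most distant, at 95786 bp (41735 to 180407). Of their 22 peaks 11 (50.0%) were beyond 100 kb, beside 17.1% of the list. Of the other roles, only the receptors, at 25774 bp (16100 to 39686), had an interval that did not overlap that of the inhibitors. The intervals treat peaks as independent, although peaks of 1 gene share its surroundings, and no difference between roles was tested. The distance of the inhibitors rests on 8 genes, and SPRY2 alone gave 6 of the 11 peaks beyond 100 kb. The SPRY genes, feedback inhibitors that FGF signalling induces, had 9 peaks between 41735 and 420546 bp, 7 of them beyond 100 kb. The 8 peaks of DUSP genes had a median of 37272 bp. They include the DUSP27 peak at 9793 bp, which is not counted among the intracellular inhibitors.

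Several of these genes were nearest to many peaks, although few of the peaks lay together. Another listed peak was within 1 kb of 6 signalling-gene peaks (3.92%), beside 5.53% of the list. Of the 77 genes, 41 (53.2%) were nearest to 2 or more peaks and 8 (10.4%) to 4 or more, beside 36.3% and 7.32% of the 5302 symbols in the list. Those symbols include microRNAs, and the shares over protein-coding genes alone were not computed. Because peaks of 1 transcript share a TSS, their distances fix its position, and for 100 signalling-gene peaks the side of the TSS could be read from them. Sides are given by genome coordinate, since the strand of the genes was not used here.

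TGFBR2, the type II receptor of TGFβ, was nearest to 7 peaks, the most of any signalling gene. They were spread over 203877 bp of chromosome 2, from 39578946 to 39782822, and none was closer than 34553 bp to a TSS. Their pileups were 10, 8, 8, 10, 7, 9 and 11 fragments from the nearest to the farthest, and their fold enrichments ran from 3.48 to 5.22. The 6 peaks that shared a TSS all lay on its side of lower coordinates. The farthest peak, at 169031 bp, had the highest pileup, but the intervals of the 7 pileups overlapped. Whether strength changes with distance in this gene is therefore not resolved.

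BMP4, a BMP ligand with a role in lens induction, was nearest to 4 peaks on chromosome 5 at 44374, 72605, 86244 and 90671 bp. The first lay on the opposite side of the TSS from the others, and pileups were 8 to 10 fragments. BMP2 had 3 peaks of 9 fragments each, at 44873, 80916 and 158100 bp. NOG, which encodes the BMP antagonist noggin, had peaks on both sides of its TSS on chromosome 18. The closest, at 6919 bp, had 11 fragments and a fold enrichment of 4.97, and the others lay at 7840, 12059 and 28167 bp with 8, 9 and 7 fragments. BMP2, BMP4 and NOG thus carried peaks of like height, and those of NOG lay closer to the TSS than those of BMP2 and BMP4. This does not hold for all ligands of the group, as GDF10, GDF8, GDF6 and INHBA had peaks closer than those of NOG, at 75 to 4314 bp.

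SMAD3, a transducer of TGFβ receptors, held the highest −log10 q of the BMP/TGFB group. Its peak at 9740 bp, which spans 19216296 to 19216437 of chromosome 10, had 15 fragments (8.40 to 24.7) over a background of 2.48, a fold enrichment of 4.60 with −log10 q at 4.05. The inhibitory SMAD6 on the same chromosome had peaks of 8 and 14 fragments at 25943 and 54657 bp.

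Among WNT genes no peak was within 3 kb. The closest was at 3171 bp from the TSS of WNT7A, with 7 fragments. FZD1, a WNT receptor, had 4 peaks on chromosome 2 of 7, 11, 7 and 12 fragments at 13361, 81321, 94706 and 107706 bp. The farthest, from 22242247 to 22242449, had a fold enrichment of 5.66 (3.13 to 9.56) with −log10 q at 4.76, the second highest fold of the signalling-gene peaks. The third was the WNT9A peak, which spans 2836680 to 2836806 of chromosome 2 at 170977 bp and has 12 fragments and a fold enrichment of 5.38. WNT5B shared its 4 peaks with the symbol ADIPOR2, the gene of an adiponectin receptor, at 11188 to 84566 bp and with 8 or 9 fragments each.

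**Figure D4:**
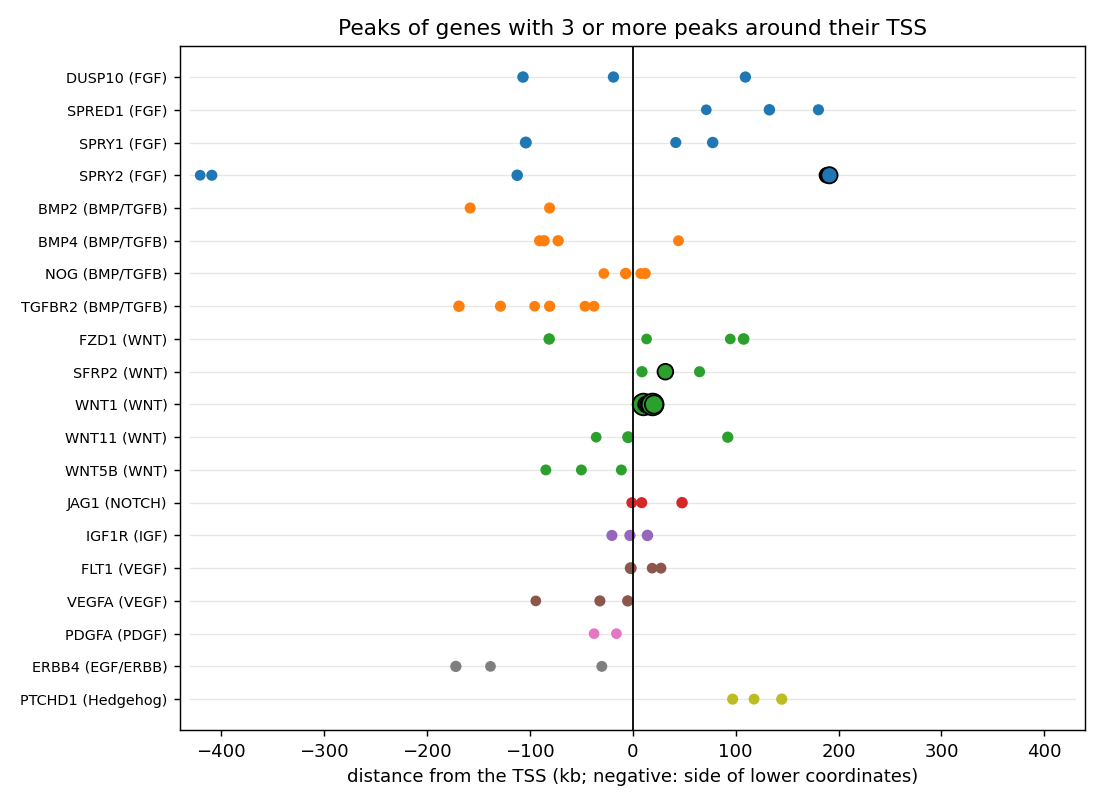
Peaks around the TSS of signalling genes nearest to 3 or more peaks, with distance in kb on the horizontal axis, negative on the side of lower coordinates. Point area grows with the pileup, a black rim marks high IgG background, and peaks whose side could not be read are left out. The 6 TGFBR2 peaks lie to the left of the TSS, the 6 WNT1 peaks are packed to its right, and those of SPRY2 reach from 420546 bp on the left to 191127 bp on the right.

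SPRED1, an inhibitor of RAS-ERK signalling, was nearest to 4 peaks on chromosome 5 at 12103, 71405, 132746 and 180407 bp, with 10, 7, 11 and 9 fragments. SPRY1 had 3 peaks on chromosome 4, of which that at 104037 bp had 14 fragments (7.65 to 23.5) and a fold enrichment of 4.80. DUSP10, a phosphatase of stress-activated MAP kinases, had 3 peaks of 10 or 11 fragments and fold enrichments of 4.79 to 5.18, so that its −log10 q was above 3 at each. A peak of 11 fragments at the floor, with a fold enrichment of 5.22 with −log10 q at 3.88, was shared by 9 sites, which lay near ANGPT1, DUSP7, FGFR1, FGFR2, IGF1R, NRG4, PDGFA, SPRY1 and TGFBR2. In the list 498 peaks had a higher fold enrichment than these.

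The peaks with high IgG background were found near 4 genes. WNT1 was nearest to 6 of them, within 10728 bp of chromosome 33 from 3432834 to 3443561, all on the same side of the TSS and 10386 to 20665 bp from it. At all 11 peaks of this kind the background was a whole multiple of 0.3537 fragments (within 0.1 of a step), which is taken here as what 1 IgG count was worth after the scaling by the peak caller. Whether a count is a whole fragment or a fragment end is not known, and intervals of ratios assume that counts are independent. At the first WNT1 peak, 260 HIF1α fragments stood against 423 IgG counts, or 149.6 after scaling. The ratio was 1.74 (95% interval 1.48 to 2.03, from the exact binomial interval of both counts). Its −log10 q of 11.5 was the highest of the signalling-gene peaks, although 149 of the 153 had a higher fold enrichment.

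The other WNT1 peaks had 62, 83, 97, 267 and 126 HIF1α fragments against 90, 132, 150, 583 and 205 IgG counts. The scaled ratios ran from 1.29 (1.12 to 1.50) to 1.95 (1.39 to 2.72), all under the median fold of the set. A ratio above 1 is given by the calling threshold and adds nothing to the call. At SPRY2 3 peaks lay together at 188765, 189854 and 191127 bp, with 46, 39 and 69 HIF1α fragments against 59, 50 and 116 IgG counts and scaled ratios of 2.20, 2.21 and 1.68. The other 3 SPRY2 peaks had 11, 9 and 7 fragments without high background, at 112391, 409238 and 420546 bp on the opposite side.

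SFRP2, a secreted WNT antagonist, had a peak at 31628 bp, which spans 20099042 to 20099176 of chromosome 4, with 59 HIF1α fragments against 50 IgG counts. The scaled ratio of 3.34 (2.25 to 4.96) was above those of WNT1, although its interval overlapped those of 3 of them, and the −log10 q was 10.2. FGF16 had 30 HIF1α fragments against 24 IgG counts at 7548 bp, a ratio of 3.53 (1.998 to 6.32) and a −log10 q of 4.64. Without the 11 peaks of high IgG background the median distance of the signalling-gene peaks was 32361 bp and the share within 3 kb 10.6%. Over the list without such peaks these values were 22677 bp and 13.4%.

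**Figure D5:**
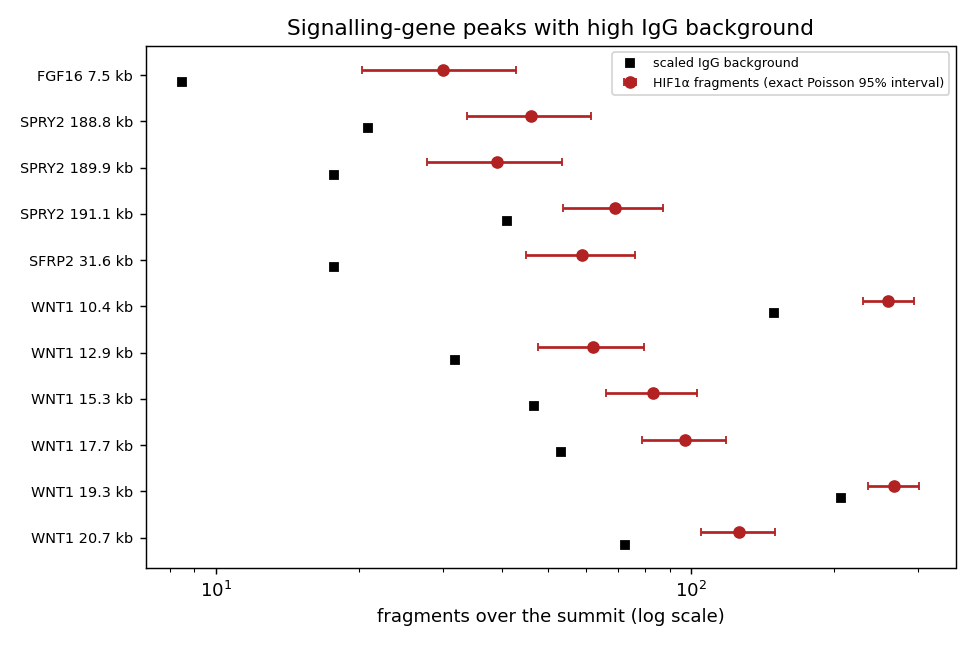
HIF1α fragments (red, with exact Poisson 95% intervals) and the scaled IgG background (black squares) at the 11 signalling-gene peaks with high IgG background, on a log axis, each named by gene and distance to the TSS. Each peak passed the calling threshold, so the squares had to lie to the left of the points. The gap is widest at SFRP2 and FGF16 and narrowest at the WNT1 peak of 267 fragments.

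Beside FLT1, whose peak at 2047 bp is given above, VEGFA and 2 other genes known from other cells as HIF targets were examined, a choice made after their values were seen. The set holds only genes with a peak, so these genes do not show how often HIF targets have one. VEGFA had 3 peaks on chromosome 3, all on the same side of the TSS. The closest, from 30791495 to 30791609, lay 4963 bp away and had 10 fragments (4.80 to 18.4), a fold enrichment of 4.79 with −log10 q at 3.07. The others had 9 and 7 fragments at 32018 and 94306 bp. ANGPTL4, an inhibitor of lipoprotein lipase, had a peak of 10 fragments at 3646 bp on chromosome 28, and IGFBP1, which binds IGFs outside the cell, had one of 10 fragments at 16195 bp. Unlike FLT1, these 3 genes had no peak within 3 kb, and the intervals of their pileups overlapped those of the other members without high IgG background. DLL4, a NOTCH ligand of endothelium, had the highest −log10 q of the NOTCH group, 3.07, from 10 fragments at 12368 bp.

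Other genes of these pathways or related to them, outside the symbol rule, were taken from a list of 184, of which 173 were in the gene table. Its VEGF part also holds the HIF system genes HIF1A, EPAS1, ARNT and VHL and the endothelial adhesion genes CDH5 and PECAM1. Of these, HIF1A, EPAS1, CDH5 and PECAM1 were nearest to a peak and are included in the counts. Of the 173, 61 (35.3%, Wilson 95% confidence interval 28.5 to 42.6) were nearest to a peak, beside the 25.6% of protein-coding genes. A peak within 3 kb was found for 10 (5.78%), beside 5.61%. These genes were picked by hand with earlier results of these data known, so their share is no independent support for that of the families. How far empty sequence around them contributes was not tested here either. The list holds SEF and IL17RD, names of the same gene, as separate entries, so this gene with a peak was counted more than once. The NOTCH pathway, with 34 of the 173 genes, had 3 of the 10. They were the HES family genes HES5 and HES6 and the ligand-activating ubiquitin ligase MIB1. HES5 had 9 fragments over its TSS, on a background of 2.12, with a fold enrichment of 3.20 and −log10 q at 1.38. HES6 had 8 fragments at 410 bp and MIB1 10 fragments at 2127 bp. PIK3R1, a regulatory subunit of PI3 kinase, had 10 fragments over a TSS and 8 at 2153 bp from another. GRB14, an adaptor that restrains insulin receptor signalling, had 8 fragments at 227 bp. ID2, a target of BMP signalling, had 11 fragments at 1734 bp, a fold enrichment of 5.22 with −log10 q at 3.88. NRP2, a co-receptor for VEGF, had 9 fragments at 629 bp and DVL1, a WNT transducer, 10 fragments at 1338 bp. FRS3, an FGF receptor adaptor, had 10 fragments at 85 bp in a peak shared with PGC, and SKIL, which represses SMAD signalling, had 7 at 473 bp in a peak shared with PRKCI. The peaks of these 10 genes within 3 kb had pileups of 7 to 11 fragments.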

How the data were processed

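The authors trimmed reads with Trimmomatic, aligned them to galGal6 with Bowtie2, kept short fragments with SAMtools and called peaks with MACS2 on pooled HIF1α against pooled IgG libraries. Tool versions are not given in the sources used here. The deposited pileup is a signal in whole counts, called fragments here, and the deposited fold enrichment is a ratio. MACS2 also gave the deposited −log10 values of p and q, and the highest q was 0.0496. The authors' positions and distances are in bp on galGal6, counted from 1. The depth of each library is unknown, and the columns hold pooled values (columns that matched no sample numbered 0).

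Backgrounds were computed from pileup and fold, and Poisson p recomputed from them differed from the deposited −log10 p by at most 0.00165 at 8369 peaks. Of 433 backgrounds of 5 to 50 fragments, 91.5% were within 0.02 of a whole multiple of 1 IgG count after scaling, and the IgG counts given were within 0.1. A TSS was placed within 2 bp from the peaks of 1 transcript for 1638 of 1661 transcripts. Intervals (Wilson for shares, binomial ranks for medians, exact Poisson for pileups) cover counting error only and were tested on simulated data. Calculations used Python 3.11.15 and SciPy 1.17.1. RefSeq names (assembly GRCg7b) matched 74 of the 77 genes directly and 1 by an older symbol.

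Genes were named if a peak was among the 10 highest by −log10 q or by fold enrichment, if a peak was within 3 kb, if 4 or more peaks were nearest, or if a peak was the highest by −log10 q or closest in its pathway. Some other genes, among them BMP2, DUSP10 and SMAD6, met none of these rules and were described by choice. The members and gene lists were chosen with earlier results of these data known. Peak and promoter sequences were not used here.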

Additional observations from a re-analysis of the deposited data

How the results depend on the processing

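No paired analysis was possible because the peaks were called on pooled libraries and the list carries no replicate numbers, and for the same reason no library could be left out. The lists of alternatives were 8 filters or groupings and 3 other distances. A −log10 q of at least 2 left 82 peaks (including 25 FGF, 15 BMP/TGFB, 17 WNT, 2 NOTCH, 8 IGF and 6 VEGF). The median fold enrichment of these was 4.55. A −log10 q of at least 3 left 44 peaks at 35 genes (including 15 FGF, 7 BMP/TGFB, 9 WNT, 1 NOTCH, 3 IGF and 4 VEGF). Their median fold was 4.79, their median distance 19750 bp and their share within 3 kb 15.9%. With either filter the FGF group had more peaks than the BMP/TGFB group, while without a filter it had 37 against 40. The higher median fold follows from the filter itself, since weak peaks drop out. Such a close peak was left for 7 genes, which follows in part from fewer peaks. Neither the share nor the median distance of the whole list was computed under this filter, so these values have no like comparator. A fold enrichment of at least 3 lowered the share with high IgG background to 1.39%, since such peaks have low folds. Taking 1 HIF1α fragment from each peak left 122 peaks, 4 of them in the NOTCH group. The median of their deposited folds was 4.14, which is higher only because weak peaks dropped out. With peaks of 1 symbol, 9 genes had a peak within 3 kb and 4 IGF peaks were left. At 1 kb and 10 kb the share was 3.27% and 22.9%, at 5 and 30 genes. The share of the list was 30.8% at 10 kb, and at 1 kb it was not computed.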
